A study of Mus musculus with 21 samples.

Results

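The collagen and ADAMTS genes of the mouse were followed in nascent RNA from cortical cultures. They were all genes of the deposited whole-gene count table whose symbol is Col, a number, a and a number, or Adamts and a number. The rule reads names alone, but it was chosen with earlier results of these data known. There were 63 of 24984 genes, 44 collagen genes and 19 ADAMTS genes. Of these, 62 (43 collagen and 19 ADAMTS genes) passed the filter on low counts and were tested among 16959 genes. Col17a1 was the exception, with at most 9 counts in any library. The mean level over libraries reached 1 CPM (the usual scaling of counts to library size) in 46 of the 63 (29 collagen and 17 ADAMTS genes) and 10 CPM in 21.

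Cortical cultures of CD1 mice, of mixed sex and at day 17 in vitro, were preincubated for 30 min with 25 µM MM401 or with its solvent DMSO. MM401 blocks the contact of the histone methyltransferase MLL1 with WDR5. They were then given 40 µM bicuculline, which blocks GABA-A receptors and raises network activity, or water as its vehicle, over 1 h or 4 h. Every group received 2 mM bromouridine in the last 30 min, so that the sequenced RNA was the RNA made in that interval (BrU-seq). The 7 groups of 3 biological replicates were DMSO with water at 4 h, DMSO with bicuculline at 1 h and at 4 h, MM401 with water at 1 h and at 4 h, and MM401 with bicuculline at 1 h and at 4 h. A DMSO group with water at 1 h was not analysed here, so bicuculline at 1 h in DMSO was set against water at 4 h, and time and treatment differ together in that comparison.

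Collagens are triple-helical proteins of the extracellular matrix. Fibrillar types such as type I build fibres, type IV builds the sheets of basement membranes around brain vessels and under the meninges, and FACIT types attach to fibres. ADAMTS proteins are secreted metalloproteinases. One branch cleaves the proteoglycans aggrecan, versican, brevican and neurocan that form the matrix around neurons and the perineuronal net, and another trims the N-propeptide from procollagen.

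Libraries held 49886348 to 87939384 counts in genes. The third library labelled MM401 and water at 4 h held only 316741, or 0.503% of the median of the rest, and was left out, so this group has 2 libraries and all fits used 20. The nascent reads of this table were counted over the whole span of each gene, introns included. The labels call the replicates biological without saying what separates them, so p-values measure the spread between these libraries. In a culture of several cell types, fewer cells of a type and less RNA per cell cannot be told apart. Marker levels bear on this. The summed level of 12 fibroblast and meningeal markers was 66.8 to 82.1 CPM in the water libraries and 83.4 to 96.0 CPM in the bicuculline libraries, most of it Pdgfra (66.8 to 88.98 CPM in the group means), which oligodendrocyte precursors also express. Lum, Slc6a13, Foxd1 and Twist1 did not pass the filter. Endothelial markers summed to 3.49 to 5.44 CPM, with Cldn5 at 0 to 0.0173 CPM in the group means, and overlapped between water and bicuculline. Pericyte and smooth muscle markers summed to 18.2 to 22.3 CPM in the water libraries and 22.4 to 28.6 CPM in the bicuculline libraries, which did not overlap, with Vtn at 0 to 0.0141 CPM. Microglial markers summed to 61.5 to 78.7 CPM with water, 55.8 to 74.2 CPM with bicuculline at 1 h and 77.3 to 93.3 CPM with bicuculline at 4 h. Neuronal markers summed to 3266 to 3740 CPM with water and 4343 to 5421 CPM with bicuculline, and astrocyte markers to 1111 to 1655 and 1379 to 1727 CPM. At 1 h the astrocyte sums did not overlap, at 1111 to 1383 CPM with water and 1589 to 1727 CPM with bicuculline. Oligodendrocyte lineage markers summed to 105 to 123 CPM with water and 117 to 142 CPM with bicuculline. At 1 h these did not overlap either (105 to 107 and 117 to 132 CPM). The part of these shifts in the results that follow was not tested.

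The members spanned 3 orders of magnitude in level per length. In DMSO with water at 4 h the highest was Adamts1, at 2.06 ± 0.188 RPKM over the gene span (SD, n = 3; RPKM is CPM per kilobase). Adamts3 followed at 0.653 ± 0.0695 and Adamts6 at 0.441 ± 0.0242 RPKM, and Adamts10, Col4a2, Col11a1 and Col4a1 at 0.426, 0.416, 0.365 and 0.330 RPKM. Adamts6, Adamts10 and Col4a2 did not differ beyond their spread, whereas the gap from Adamts1 to Adamts3 was 7 times the combined SD of the pair. The classical fibrillar genes were low: Col1a1 stood at 0.698 ± 0.319 CPM, Col1a2 at 0.550 ± 0.281 CPM and Col3a1 at 0.137 ± 0.0684 CPM, and none of these was called in any comparison. The most abundant in reads were genes with long spans, Adamts3 (137 CPM), Adamts6 (92.1 CPM) and Col25a1 (91.0 CPM).

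**Figure D1:**
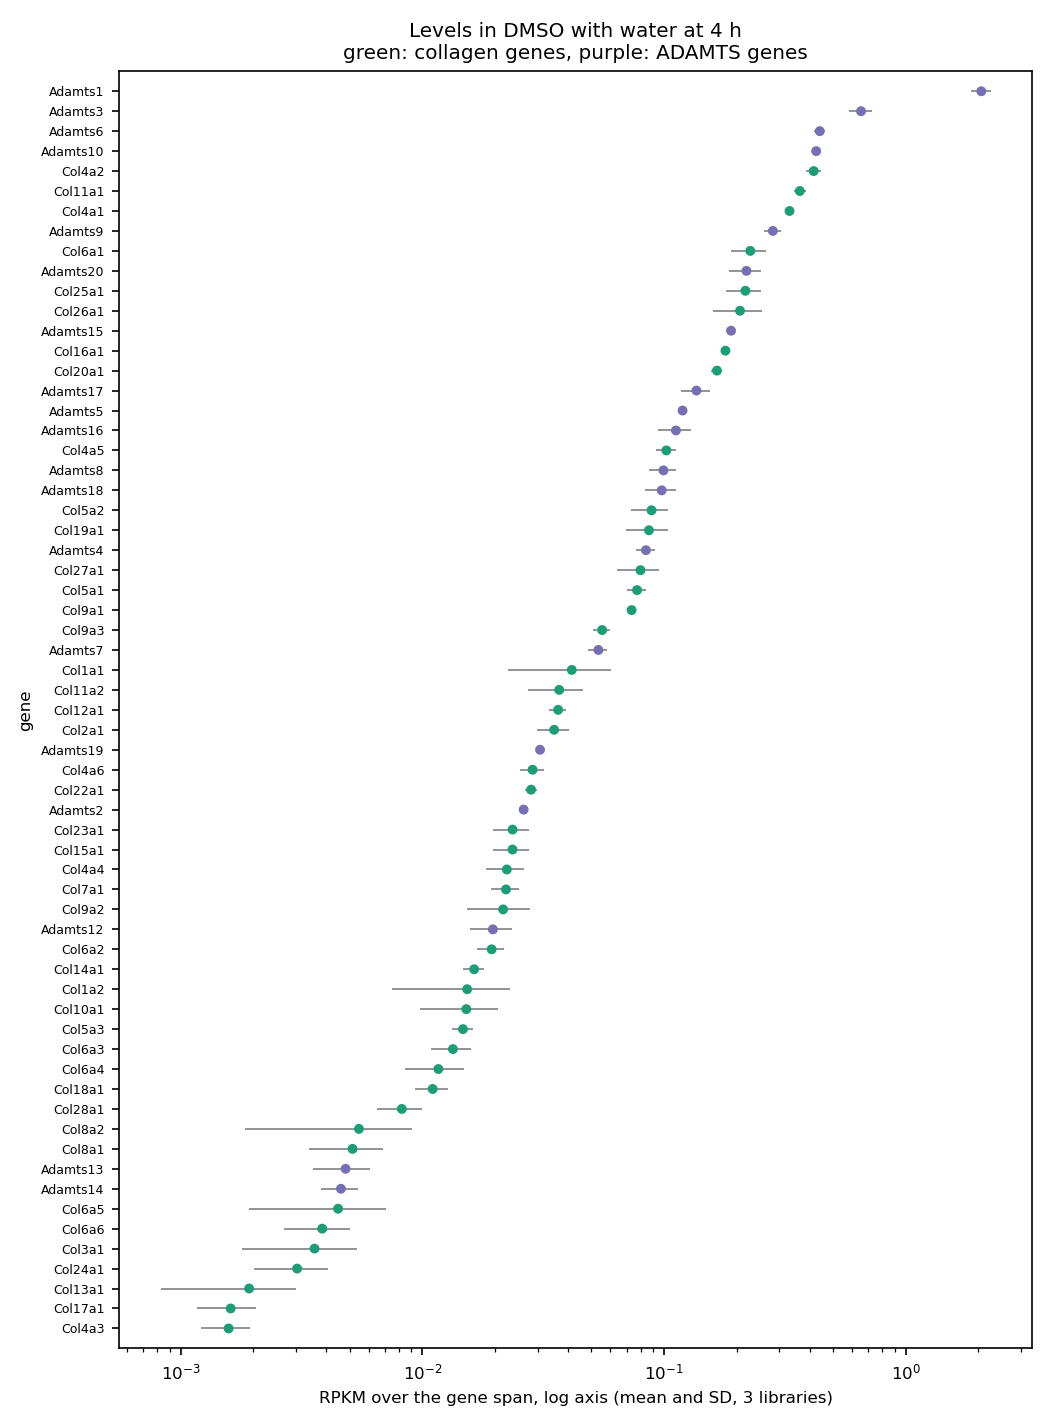
Mean level of each of the 63 genes in DMSO with water at 4 h, as RPKM over the gene span on a log axis, with the SD of 3 libraries (lower bars are shortened where they would reach 0). Adamts1 stands alone at the top, at 2.06 RPKM, and Col4a3, Col17a1 and Col13a1 are lowest.

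In DMSO, bicuculline at 1 h against water at 4 h raised 30 of the 62 members and lowered none (edgeR quasi-likelihood test, Benjamini-Hochberg adjusted p under 0.05 over all genes, as for every call below). Of all tested genes 44.6% were called, 20% higher and 24.5% lower. The median log2 fold change of the members was 0.37, against -0.038 over all genes. The rise covered 20 of 43 collagen genes and 10 of 19 ADAMTS genes, and 9 members were raised at least 2-fold. Col10a1, whose calls are a description only as set out below, is among these 9. The share of all genes raised at least 2-fold was not computed. At 4 h, 23 members were higher and 9 lower, where 49.2% of all genes were called (23.7% higher, 25.5% lower), and the median was 0.32 against -0.024. In MM401, bicuculline at 1 h against water at 1 h raised 20 and lowered 5, with 18.1% of all genes higher and 21.8% lower (39.9% called), and bicuculline at 4 h raised 17 and lowered 8, with 23% of all genes higher and 21.7% lower (44.6% called). The members' medians were 0.20 and 0.17. The libraries compared did not overlap for 31 members in DMSO at 1 h (47.4% of all genes) and 36 at 4 h (52.5%), and for 31 in MM401 at 1 h (51.1%) and 37 at 4 h (66.6%, with 2 water libraries). With plain library sizes in place of TMM scaling the split changed, to 19 higher and 4 lower in DMSO at 1 h, 16 and 13 at 4 h, and 7 and 10 in MM401 at 1 h, while the median of all genes moved to -0.23, -0.30 and -0.21.

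**Figure D2:**
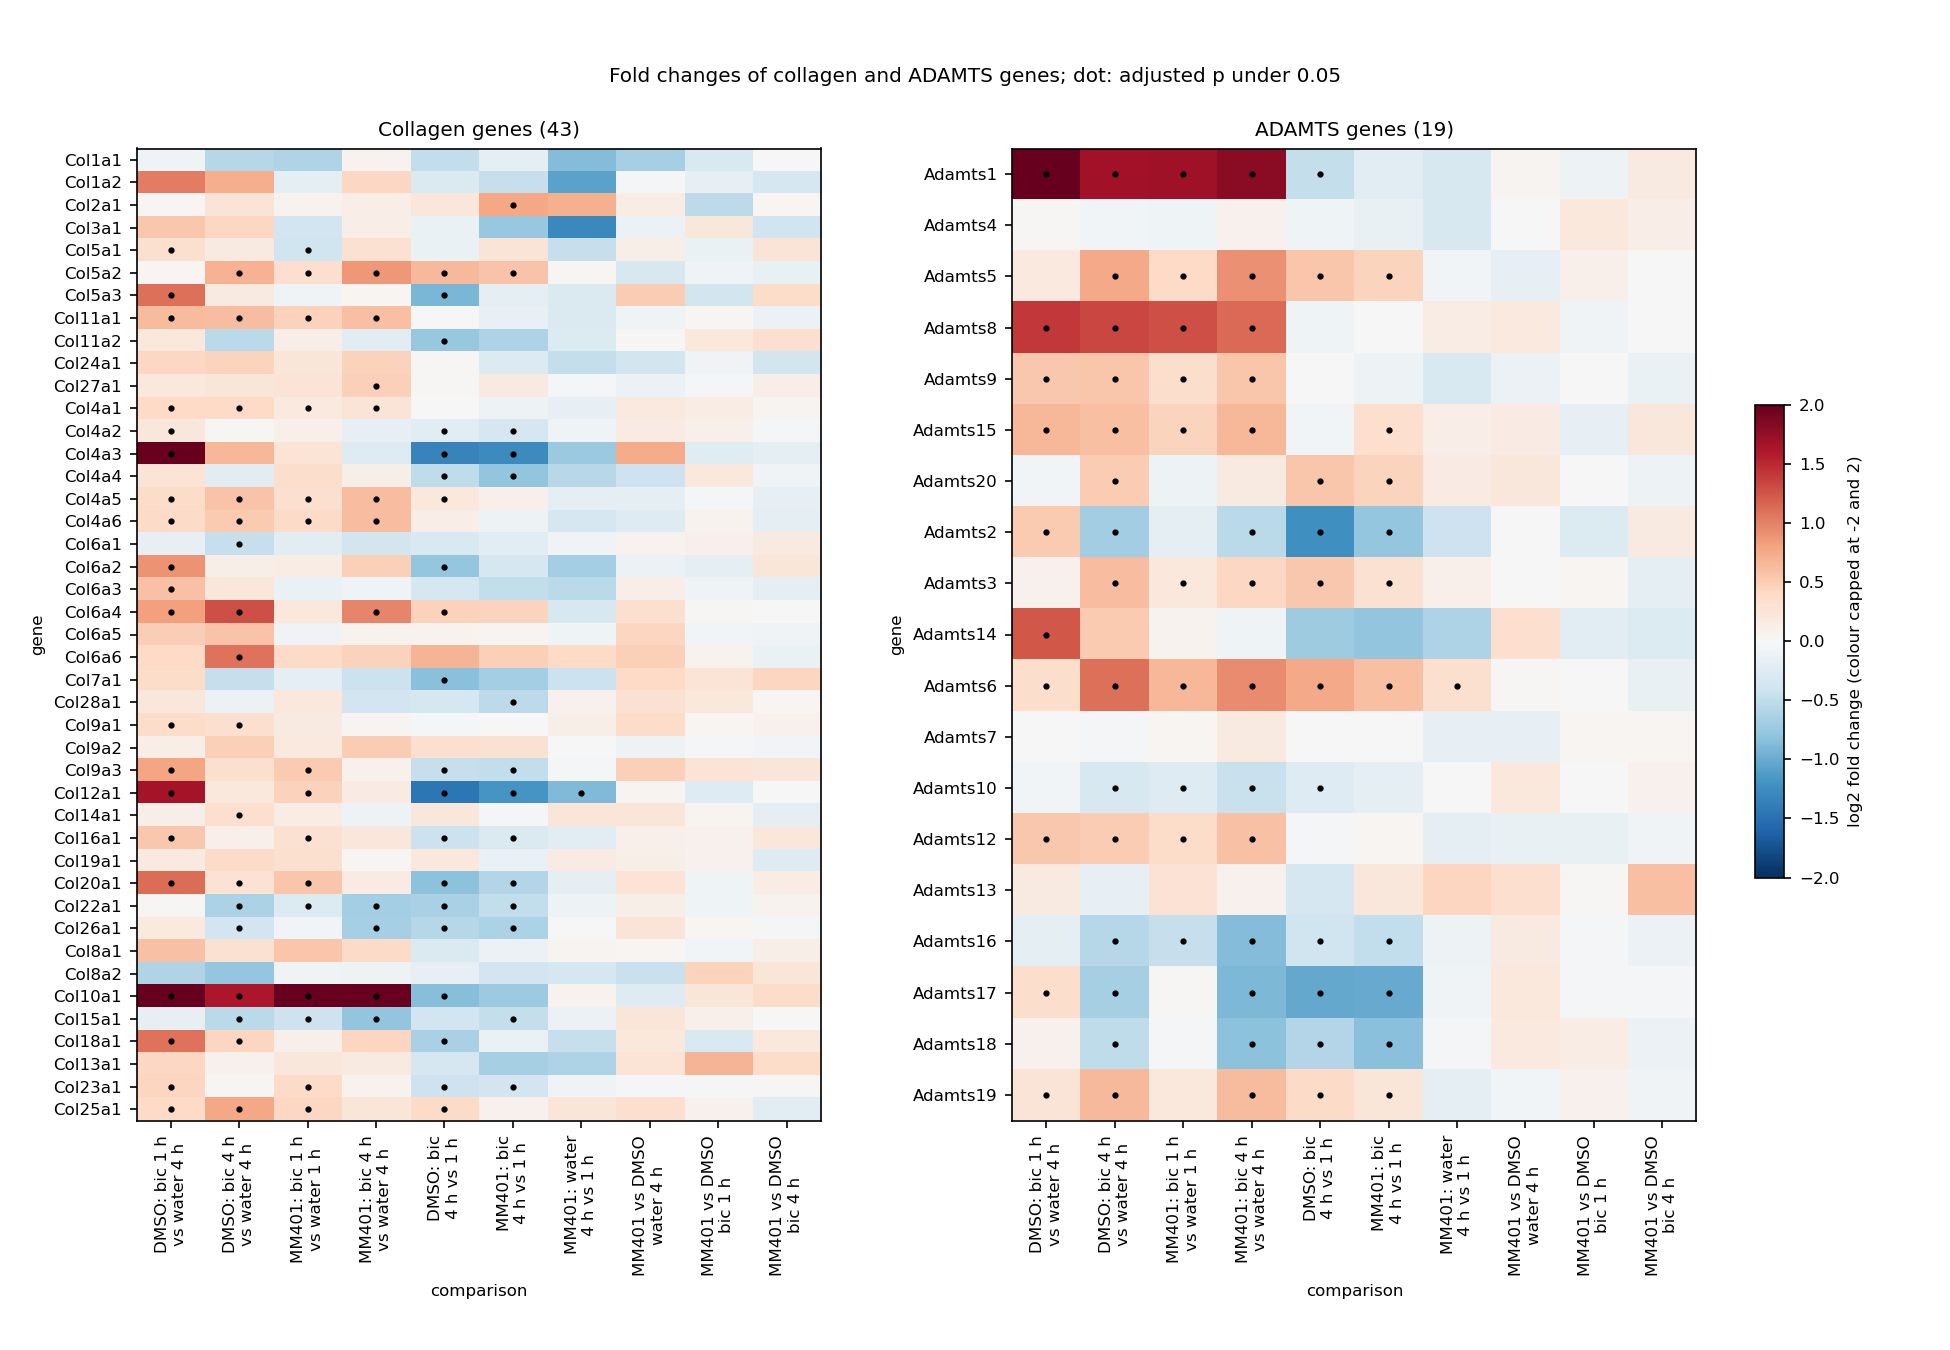
Log2 fold change of each tested collagen gene (left) and ADAMTS gene (right) in 10 comparisons, with colour capped at -2 and 2 and a dot where the adjusted p was under 0.05. Adamts1, Adamts8 and Col10a1 are dark red in the 4 comparisons of bicuculline with water, and the 3 columns of MM401 against DMSO carry no dot.

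The proteoglycan-cleaving ADAMTS genes were higher at both times in most members. In DMSO 4 of 7 rose at 1 h and 6 of 7 at 4 h, in MM401 5 of 7 rose at each time, and none was lowered against the main references. These are 57.1%, 85.7%, 71.4% and 71.4% of the 7. Of all genes 20%, 23.7%, 18.1% and 23% were higher in these comparisons, and 44.6%, 49.2%, 39.9% and 44.6% were called in either direction. Adamts1 (chromosome 16, 85793827 to 85803113, minus strand), an activity-responsive protease that cleaves aggrecan and versican, led them. Its level was 17.6, 18.7 and 21 CPM in the 3 libraries of DMSO with water at 4 h, 90.2, 88.1 and 78.1 CPM after 1 h of bicuculline and 59.9, 67.7 and 55.9 CPM after 4 h. With MM401 it was 23.7, 24.3 and 25.9 CPM in water at 1 h, 19 and 20.6 CPM in water at 4 h, 83.7, 81.8 and 74.3 CPM with bicuculline at 1 h and 62.6, 69.8 and 75.2 CPM at 4 h. Every bicuculline library lay far above every water library. On the log2 scale Adamts1 rose in DMSO by 2.16 ± 0.085 at 1 h (SE, edgeR adjusted p = 1.88e-14) and by 1.68 ± 0.084 at 4 h (1.03e-12). The values were 1.70 ± 0.084 (5.95e-13) and 1.80 ± 0.099 (6.68e-12) in MM401. From 1 h to 4 h of bicuculline Adamts1 fell by 0.48 in DMSO (adjusted p = 6.02e-05) and was not called in MM401.

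The sequences that precede the start sites of Adamts1 and Col10a1, the members with the largest rises, are shown because both hold a TATA box at the same distance. These are the 250 bases before each start from RefSeq, build GRCm38.p6, at chr16:85803114-85803363 (minus strand) and chr10:34389731-34389980 (plus strand), with the letters TATAAA in capitals, beginning 32 bases before the start.
Adamts1: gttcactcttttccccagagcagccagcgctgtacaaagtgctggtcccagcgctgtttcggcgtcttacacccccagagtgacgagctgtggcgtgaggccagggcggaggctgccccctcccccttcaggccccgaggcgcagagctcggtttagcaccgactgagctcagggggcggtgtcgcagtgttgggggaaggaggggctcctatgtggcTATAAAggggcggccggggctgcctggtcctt
Col10a1: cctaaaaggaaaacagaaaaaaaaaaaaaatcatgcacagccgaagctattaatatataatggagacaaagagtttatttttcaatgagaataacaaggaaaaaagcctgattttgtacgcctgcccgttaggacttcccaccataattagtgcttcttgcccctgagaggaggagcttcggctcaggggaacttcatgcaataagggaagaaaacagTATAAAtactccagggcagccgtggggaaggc
Promoter entries of 300 bases were matched to 45 of the 63 members. TATAAA, on either strand, was found in 6 of these (13.3%) and in 13.6% of the 32851 promoters of the table, a search chosen after the printed sequences were read. The other motifs searched on both strands were the AP-1 site TGAGTCA (in Col6a1 among the members, and in 5.2% of all promoters), the CRE TGACGTCA (Col24a1, 1.79%), the EGR site GCGTGGGCG (no member, 0.612%) and the CArG box (Col6a4, 1.63%).

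Adamts8, another protease of this branch, rose nearly as steadily. It was 1.84, 2.38 and 2.12 CPM in DMSO with water, 5.15, 6.04 and 5.79 CPM after 1 h and 5.64, 5.53 and 4.90 CPM after 4 h of bicuculline. All 12 bicuculline libraries, those with MM401 included, lay above all 8 water libraries. Adamts8 rose on the log2 scale by 1.41 ± 0.12 (edgeR adjusted p = 2.73e-09) and 1.33 ± 0.12 (4.51e-09) in DMSO, and 1.29 and 1.13 in MM401. Its neighbour Adamts15, which lies head to head with it at 20.1 kb on chromosome 9, rose by 0.66 and 0.60 in DMSO and 0.45 and 0.66 in MM401, where the Adamts15 call at 1 h was lost with water at 4 h as reference and with plain library sizes. Adamts9, which also cleaves versican, rose by 0.55 and 0.56 in DMSO and by 0.35 and 0.56 in MM401, where the 1 h value was 0.66 with water at 4 h as reference.

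Adamts5, an aggrecanase that lies 55 kb from Adamts1 on the same strand, was called at 4 h but not at 1 h in DMSO. Its level was 5.01, 5.08 and 5.28 CPM in DMSO with water, 6.25, 5.93 and 5.40 CPM after 1 h and 9.002, 8.60 and 8.34 CPM after 4 h of bicuculline. The 4 h libraries lay above all others of that arm, with a log2 fold change of 0.75 ± 0.12 against water (edgeR adjusted p = 1.67e-05) and 0.56 against 1 h (0.000693). In MM401 Adamts5 rose by 0.41 at 1 h already, and by 0.92 at 4 h. Adamts20 rose by 0.51 at 4 h in DMSO and was not called at 1 h, where its mean was 28.8 CPM against 29.8 CPM in water. In MM401 Adamts20 was not called against its main water reference at either time, but with water at 4 h as reference it fell by 0.27 at 1 h (edgeR adjusted p = 0.0316). It rose by 0.44 from 1 h to 4 h of bicuculline. Adamts4, the other classical aggrecanase, stayed at 0.959 to 1.26 CPM in the group means and was not called in any comparison.

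Among the substrates and matrix partners of these proteases, 6 of 15 tested genes were higher and 2 lower in DMSO at 1 h, and 5 higher and 4 lower at 4 h. In MM401 the counts were 6 and 1 at 1 h and 5 and 3 at 4 h. These are 53.3%, 60%, 46.7% and 53.3% of the list, against 44.6%, 49.2%, 39.9% and 44.6% of all genes called in the same comparisons. Acan, which encodes aggrecan, rose from 6.78 to 20.3 CPM at 1 h and 46.2 CPM at 4 h in DMSO, by 1.59 and 2.77 on the log2 scale, and by 1.00 and 2.23 in MM401. Vcan (versican) rose by 0.38 and 1.22 in DMSO and Tnc (tenascin-C) by 1.37 and 1.15. Tnc rose by 1.08 at 1 h in MM401 against water at 1 h, and it fell by 0.47 from 1 h to 4 h of water (adjusted p = 0.0435). Has3, a hyaluronan synthase, fell by 1.08 at 4 h in DMSO. Of the ADAMTS-like proteins, TIMPs and papilin, 8 of 10 were higher and none lower at 1 h in DMSO (80%) and 4 higher and none lower at 4 h (40%). In MM401 5 were higher and none lower at 1 h (50%), and 3 were higher and 2 lower at 4 h (50%). Of all genes 20% and 23.7% were higher in DMSO and 18.1% and 23% in MM401. In either direction 49.2% of all genes were called at 4 h in DMSO. Timp1, an inhibitor of metalloproteinases, rose by 1.52 and 1.51. Of 12 matrix metalloproteinases, 1 was higher and 1 lower at 1 h (16.7% called) and 2 were higher and 3 lower at 4 h in DMSO (41.7%), against 44.6% and 49.2% of all genes. Mmp24 fell by 0.56 and 0.31.

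The 3 procollagen N-propeptidases parted. Adamts3 was 153, 133 and 124 CPM in DMSO with water, 140, 141 and 152 CPM after 1 h and 221, 205 and 204 CPM after 4 h of bicuculline, and in that arm only the 4 h libraries stood above the rest. The log2 fold change at 4 h was 0.62 ± 0.068 (edgeR adjusted p = 1.44e-07). In MM401 Adamts3 rose at both times, by 0.21 at 1 h and 0.41 at 4 h, and the 1 h call was lost with water at 4 h as reference (0.11, adjusted p = 0.266). Adamts2 went down at 4 h. It was 5.62, 5.31 and 5.24 CPM with water, 7.15, 8.12 and 7.94 CPM after 1 h of bicuculline and 3.17, 2.63 and 4.09 CPM after 4 h, and the groups did not overlap. Adamts2 rose by 0.52 ± 0.14 at 1 h (edgeR adjusted p = 0.00454) and fell by 0.70 at 4 h (0.000415) against the same water group. At 4 h in MM401 Adamts2 fell by 0.54 (edgeR adjusted p = 0.0108), a call that was lost without MM401 bicuculline 4 h replicate 1. In MM401 its levels at 1 h were 6.13, 8.96 and 6.63 CPM in water and 6.51, 6.33 and 6.27 CPM in bicuculline, which overlap, and its log2 fold change there was -0.19 (adjusted p = 0.315). Adamts14 stayed at or below 1.2 CPM in DMSO, and rose by 1.24 at 1 h in DMSO, a call that was lost without DMSO bicuculline 1 h replicate 2.

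Of the 9 other ADAMTS genes 3 were higher and 4 lower at 4 h in each arm (77.8% called). Of all genes 49.2% were called in DMSO (23.7% higher, 25.5% lower) and 44.6% in MM401 (23% and 21.7%), which also split by direction. Adamts6, which acts on fibrillin microfibrils, was 92.0, 87.1 and 97.2 CPM in DMSO with water, 128, 107 and 116 CPM after 1 h and 212, 181 and 201 CPM after 4 h of bicuculline. The 3 groups did not overlap and rose in that order, by 0.35 ± 0.069 (edgeR adjusted p = 0.000325) at 1 h and 1.11 ± 0.069 (2.57e-11) at 4 h, and by 0.66 and 0.94 in MM401, where the 1 h value was 0.34 with water at 4 h as reference. Adamts12 and Adamts19 also rose at 4 h in both arms, by 0.50 to 0.65.

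Adamts17 showed the largest loss at 4 h among the ADAMTS genes in MM401 and second to Adamts2 in DMSO. Its level was 49.1, 39.4 and 39.3 CPM in DMSO with water, 53.9, 56.0 and 53.7 CPM after 1 h of bicuculline and 24.6, 27.5 and 28.6 CPM after 4 h. The MM401 arm had 51.3, 56.5 and 47.8 CPM in water at 1 h, 48.5 and 49.7 CPM in water at 4 h, 57.8, 55.3 and 45.6 CPM with bicuculline at 1 h and 26.0, 26.7 and 26.3 CPM at 4 h. All 6 libraries with bicuculline at 4 h lay below the other 14. Adamts17 fell by 0.66 in DMSO (edgeR adjusted p = 2.39e-06) and by 0.90 in MM401 (2.1e-07) at 4 h against water. Adamts16, Adamts18 and Adamts10 fell at 4 h in both arms too, by 0.57, 0.50 and 0.32 in DMSO and 0.87, 0.82 and 0.45 in MM401. Adamts16 and Adamts10 were already lower at 1 h in MM401, by 0.47 and 0.26. The Adamts10 call there was kept in 11 of 14 alternatives. Adamts7 and Adamts13, which cleaves von Willebrand factor, were not called.

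**Figure D3:**
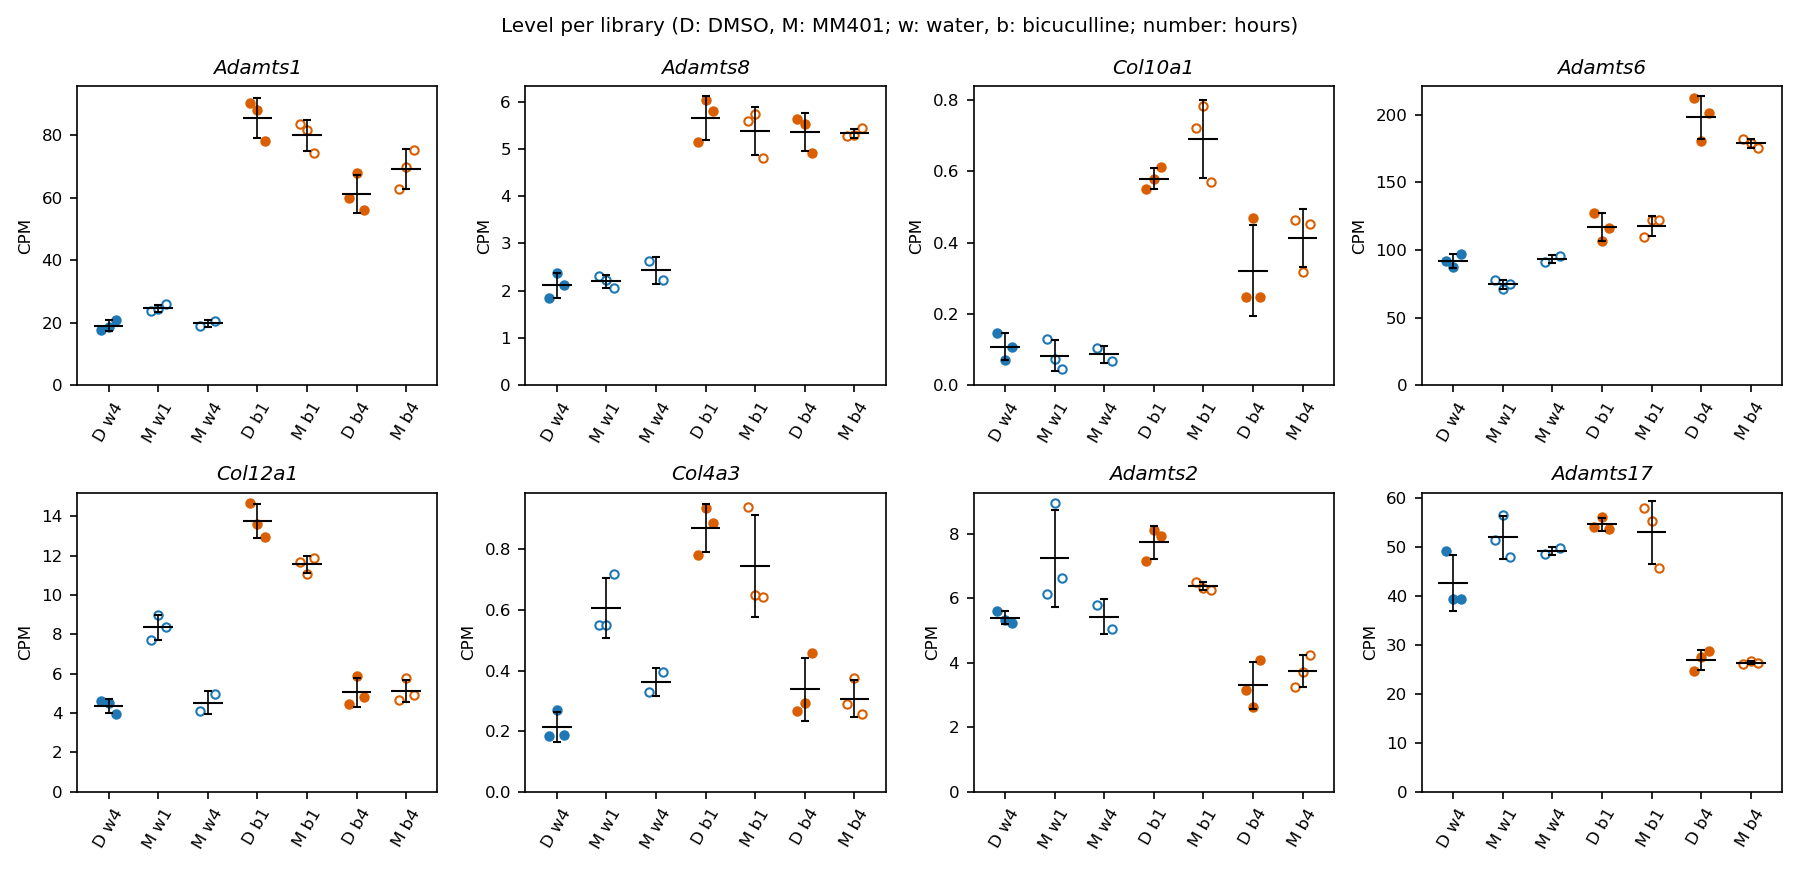
Level in CPM of 8 genes in each library (points), with the group mean (line) and SD (bars); filled points are DMSO, open points MM401, blue is water and orange bicuculline. Adamts1, Adamts8 and Col10a1 are high in all bicuculline groups, Col12a1 and Col4a3 are highest at 1 h, and Adamts17 is lowest with bicuculline at 4 h.

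Col10a1, a network-forming collagen known from hypertrophic cartilage, had the largest fold change of the collagen genes from a very low level. It was 0.147, 0.0704 and 0.106 CPM in DMSO with water, 0.551, 0.577 and 0.611 CPM after 1 h and 0.248, 0.468 and 0.247 CPM after 4 h of bicuculline, and with MM401 at most 0.129 CPM in water and at least 0.318 CPM in bicuculline. No bicuculline library overlapped a water library. Col10a1 rose on the log2 scale by 2.46 ± 0.35 (edgeR adjusted p = 6.35e-06) and 1.62 ± 0.37 (0.00104) in DMSO, and 3.03 ± 0.37 (8.64e-07) and 2.24 ± 0.45 (0.00039) in MM401. Its counts ran from 3 to 48 per library. All 8 water libraries lay below 0.159 CPM, which the filter's minimum count stands for at the median depth, so Col10a1 passed the filter through the bicuculline groups where it is high, and its calls are a description only. The gene lies wholly inside Nt5dc1, on the opposite strand, and the use of strand in the counting is not stated, so its reads cannot be told apart from those of its host. Nt5dc1 rose by 0.65 and 0.40 in DMSO and by 0.25 and 0.40 in MM401, less than Col10a1, and stood at 0.339 RPKM in DMSO with water against 0.0152 for Col10a1. Col8a1 and Col8a2, the other network genes, were not called.

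Type IV collagen, the core of basement membranes, rose in 5 of 6 genes at 1 h (83.3%) and 3 of 6 at 4 h (50%) in DMSO, and in 3 of 6 at each time in MM401 (50%). Of all genes 20% and 23.7% were higher in DMSO and 18.1% and 23% in MM401, below the shares of these 6 genes. In either direction 44.6% and 49.2% of all genes were called in DMSO and 39.9% and 44.6% in MM401. The references at 1 h differ between the arms. With water at 4 h as reference in MM401 too, Col4a1, Col4a3, Col4a4, Col4a5 and Col4a6 were called higher at 1 h. The 6 genes lie in 3 pairs that start head to head. Col4a1 was 38.5, 37.0 and 37.9 CPM in DMSO with water, 47.0, 49.97 and 53.2 CPM after 1 h and 51.0, 49.5 and 49 CPM after 4 h of bicuculline, above water at both times (log2 fold change 0.40 ± 0.065 at each, edgeR adjusted p = 2.85e-05 and 2.39e-05). Its partner Col4a2 rose by 0.23 at 1 h alone. Their spans overlap by 23 bp. Col4a5 and Col4a6, with starts 1341 bp apart on chromosome X, rose together, by 0.37 and 0.38 at 1 h and by 0.58 and 0.52 at 4 h in DMSO, and by 0.31 and 0.38 and then 0.61 and 0.61 in MM401. The Col4a6 call at 4 h in MM401 was lost with all 21 libraries (0.44, adjusted p = 0.198). With water at 4 h as reference, the 1 h values in MM401 were 0.51 for Col4a5 and 0.72 for Col4a6.

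Col4a3 and Col4a4, whose products belong to the network of the kidney filter, behaved otherwise. Col4a3 was 0.184, 0.270 and 0.186 CPM in DMSO with water at 4 h, 0.783, 0.938 and 0.887 CPM with bicuculline at 1 h and 0.265, 0.293 and 0.457 CPM at 4 h. In MM401 it was 0.550, 0.549 and 0.720 CPM in water at 1 h, 0.329 and 0.395 CPM in water at 4 h, 0.939, 0.650 and 0.643 CPM with bicuculline at 1 h and 0.288, 0.374 and 0.256 CPM at 4 h. All libraries of 1 h, with water or with bicuculline, lay above all libraries of 4 h. The log2 fold change of bicuculline at 1 h was 1.99 ± 0.26 (edgeR adjusted p = 2.52e-06) against water at 4 h in DMSO and 0.28 ± 0.24 (0.383) against water at 1 h in MM401. From 1 h to 4 h of bicuculline Col4a3 fell by 1.33 in DMSO and 1.27 in MM401, and Col4a4 by 0.50 and 0.79. The stretch between their starts is shown because the pair is so close. It is chr1:82586835-82586934 of GRCm38.p6 (RefSeq, strand of Col4a4), with the 70 bases between the starts in capitals and 15 bases of each gene's side in lower case.
Col4a4: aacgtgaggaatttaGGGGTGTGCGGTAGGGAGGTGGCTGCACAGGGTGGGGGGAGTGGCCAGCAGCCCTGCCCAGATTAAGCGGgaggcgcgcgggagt

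Of the partners of type IV collagen in the basement membrane, 8 of 14 genes were higher at 1 h and none lower in DMSO, and 6 were higher and 1 lower at 4 h (57.1% and 50% called). In MM401 5 were higher at 1 h and none lower, and 3 were higher and 1 lower at 4 h (35.7% and 28.6%). Of all genes 44.6% and 49.2% were called in DMSO and 39.9% and 44.6% in MM401. The share called at 4 h in DMSO was near that of all genes, and those in MM401 were below it. By direction, 20% and 23.7% of all genes were higher in DMSO and 18.1% and 23% in MM401. At 1 h in MM401 all calls of the partners were higher, and their 35.7% lay above the 18.1% of all genes. Lamc1, a laminin chain, rose by 0.51 and 0.71. Lama4, a laminin chain of vessel walls, rose by 0.91 at 1 h and fell by 0.39 at 4 h in DMSO, and in MM401 its log2 fold change was 0.12 at 1 h (adjusted p = 0.42), and it fell by 0.82 at 4 h.

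FACIT and related collagens rose in 5 of 10 genes at 1 h in DMSO and 4 in MM401, where 1 fell. That is 50% called in each, against 44.6% and 39.9% of all genes, with 20% and 18.1% of all genes higher. At 4 h 3 rose and 2 fell in DMSO (50%, against 49.2% of all genes), and none rose and 2 fell in MM401 (20%, against 44.6%). Col12a1, which binds fibres of type I collagen, changed most of them at 1 h in DMSO. It was 4.61, 4.53 and 3.96 CPM in DMSO with water at 4 h, 14.7, 13.6 and 12.9 CPM with bicuculline at 1 h and 4.46, 5.87 and 4.83 CPM at 4 h. In MM401 it was 7.71, 8.99 and 8.38 CPM in water at 1 h, 4.13 and 4.95 CPM in water at 4 h, 11.7, 11.1 and 11.9 CPM with bicuculline at 1 h and 4.68, 5.76 and 4.91 CPM at 4 h. The 1 h libraries were above the 4 h libraries throughout, and at 1 h bicuculline was above water. The log2 fold change was 1.66 ± 0.11 (edgeR adjusted p = 7.31e-11) against water at 4 h in DMSO, and 0.47 ± 0.11 (0.00127) against water at 1 h in MM401. With water at 4 h as reference in MM401 too, it was 1.35 ± 0.13 (3.21e-08). With plain library sizes the call in MM401 was lost. At 4 h Col12a1 was not called in either arm. Col20a1 rose by 1.11 and 0.55 at 1 h, Col9a3 by 0.79 and 0.53 and Col16a1 by 0.54 and 0.31, in DMSO and MM401, with the Col9a3 call in MM401 lost under plain library sizes and the Col16a1 value there 0.52 with water at 4 h as reference. The counts of Col9a3 share 231 bp with Tcfl5 on the other strand. Col22a1 fell at 4 h, by 0.63 in DMSO and 0.67 in MM401, and Col26a1 by 0.38 and 0.67. Col22a1 was also lower at 1 h in MM401, by 0.28, a call that was kept in 9 of 14 alternatives and lost with water at 4 h as reference. The Col26a1 call in DMSO was lost without DMSO bicuculline 4 h replicate 1 or 2, without DMSO water 4 h replicate 1 (where the value was -0.18), with RLE scaling, with no filter and with all 21 libraries.

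Among the 11 fibrillar genes 3 rose at 1 h and 2 at 4 h in DMSO (27.3% and 18.2%), and none fell. Of all genes 20% and 23.7% were higher there, and 44.6% and 49.2% were called in either direction. In MM401 2 rose and 1 fell at 1 h and 3 rose at 4 h (27.3% at each time, against 39.9% and 44.6% of all genes called). At 4 h there 23% of all genes were higher. Col11a1, the most abundant of them per length, was 66.3, 67.8 and 74.0 CPM in water, 117, 93.7 and 113 CPM after 1 h and 119, 104 and 97.8 CPM after 4 h of bicuculline, with no overlap with water. It rose by 0.63 ± 0.074 (edgeR adjusted p = 4.54e-07) and 0.62 ± 0.074 (3.89e-07), and by 0.46 and 0.60 in MM401, where the 1 h value was 0.75 with water at 4 h as reference. Col5a2 rose at 4 h, by 0.69 in DMSO and 0.86 in MM401, and at 1 h in MM401, by 0.33, a call that was lost with water at 4 h as reference (0.29, adjusted p = 0.0768). Col5a1 was called in opposite directions at 1 h, 0.32 ± 0.13 in DMSO against water at 4 h (adjusted p = 0.0472) and -0.40 ± 0.13 in MM401 against water at 1 h (0.0154). Set against water at 4 h, Col5a1 in MM401 was 0.055 (adjusted p = 0.791). Without MM401 bicuculline 1 h replicate 2 or 3, or MM401 water 1 h replicate 2, the MM401 call was lost.

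The remaining collagens gave scattered calls. Col6a4 rose by 0.83 and 1.29 in DMSO and by 0.97 at 4 h in MM401, and Col6a6 by 1.08 at 4 h in DMSO. The Col6a6 libraries there overlapped, at 0.718, 0.457 and 0.425 CPM in water and 1.52, 0.673 and 1.15 CPM in bicuculline, and the call was lost with all 21 libraries (adjusted p = 0.0654). Col6a4 is shown because it alone among the members with an entry held a CArG box, in capitals, 211 bases before its start, in the 250 bases at chr9:106096692-106096941 (GRCm38.p6, RefSeq, minus strand).
Col6a4: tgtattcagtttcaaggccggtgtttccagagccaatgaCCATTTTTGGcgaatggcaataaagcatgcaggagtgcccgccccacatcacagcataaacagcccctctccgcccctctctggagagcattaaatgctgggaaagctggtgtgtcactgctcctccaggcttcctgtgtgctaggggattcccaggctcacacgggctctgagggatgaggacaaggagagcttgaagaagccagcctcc
Col6a1 fell by 0.47 at 4 h in DMSO, a call that was lost without DMSO bicuculline 4 h replicate 1 or DMSO water 4 h replicate 2. Of the multiplexins, Col18a1, the source of endostatin, rose by 1.08 at 1 h and 0.43 at 4 h in DMSO, and Col15a1 fell at 4 h by 0.53 in DMSO and 0.78 in MM401. Col15a1 was also lower at 1 h in MM401, by 0.42, a call that was kept in 10 of 14 alternatives and lost with water at 4 h as reference. Col25a1, a transmembrane collagen made by neurons, was 108, 86.6 and 78.7 CPM in DMSO with water, 111, 122 and 127 CPM after 1 h and 155, 158 and 156 CPM after 4 h of bicuculline. Each step was a rise without overlap, of 0.40 ± 0.10 (edgeR adjusted p = 0.00297) and 0.78 ± 0.10 (2.68e-06) against water. In MM401 it rose by 0.41 at 1 h, a call that was lost with water at 4 h as reference, and at 4 h its value was 0.25 (adjusted p = 0.0842). Col23a1, also a transmembrane collagen, rose at 1 h by 0.43 in DMSO and 0.38 in MM401.

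At 1 h in DMSO Col5a3 rose by 1.10, Col6a2 by 0.90 (lost without DMSO bicuculline 1 h replicate 2) and Col6a3 by 0.59. With water at 4 h as reference Col6a2 was also called in MM401 at 1 h, by 0.82 (edgeR adjusted p = 0.0244). Col9a1 rose by 0.37 and 0.33 at the 2 times and Col14a1 by 0.33 at 4 h in DMSO, and Col27a1 by 0.48 at 4 h in MM401. With each arm's main reference, no call against water at either time was made for Col1a1, Col1a2, Col2a1, Col3a1, Col11a2, Col24a1, Col4a4, Col6a5, Col7a1, Col28a1, Col9a2, Col19a1, Col8a1, Col8a2, Col13a1, Adamts4, Adamts7 or Adamts13. With water at 4 h as reference for bicuculline at 1 h in MM401, Col4a4 was higher by 0.91 (edgeR adjusted p = 0.0013) and Col2a1 fell by 0.64 (0.0302).

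Genes that modify collagen chains were followed from a list of 26 tested genes, of which 8 were higher and 2 lower at 1 h and 7 higher and 3 lower at 4 h in DMSO (38.5% called at each time, against 44.6% and 49.2% of all genes). In MM401 5 were higher and 1 lower at 1 h (23.1%, against 39.9%) and 7 higher and 4 lower at 4 h (42.3%, against 44.6%). Plod2, which hydroxylates lysines for crosslinks, rose from 36.0 to 94.0 and 121 CPM, by 1.39 ± 0.061 and 1.75 ± 0.061, and by 1.13 and 1.57 in MM401. P4ha1, a proline hydroxylase, rose by 0.79 and 0.54. Tll1, a procollagen C-proteinase, had a log2 fold change of 0.09 at 1 h (adjusted p = 0.58) and rose by 1.73 at 4 h in DMSO. Ppib fell by 0.41 and 0.36. Of 9 collagen receptors, 5 were higher and 1 lower at 1 h and 3 and 1 at 4 h in DMSO (66.7% and 44.4% called). In MM401 1 was higher and none lower at 1 h (11.1%) and 3 were higher and 1 lower at 4 h (44.4%). Against all genes, at 44.6%, 49.2%, 39.9% and 44.6%, the share of receptors was above at 1 h in DMSO and well below at 1 h in MM401. These shares at 1 h rest on unlike references, water at 4 h in DMSO and water at 1 h in MM401. Itga1 rose at 1 h by 0.86 in DMSO against water at 4 h and by 0.40 in MM401 against water at 1 h, and it fell by 0.65 from 1 h to 4 h of water (adjusted p = 0.00192). Itga10 fell by 0.44 and 1.06.

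Time in bicuculline was then compared directly. From 1 h to 4 h, 9 members rose and 22 fell in DMSO (34.2% of all genes called, 19.1% higher and 15.2% lower), and 8 rose and 16 fell in MM401 (33.6%, 17.5% and 16%). The members' medians were -0.23 and -0.19, against 0.016 and 0.025 over all genes. Among collagen genes 4 rose and 16 fell in DMSO and 2 rose and 12 fell in MM401, whereas ADAMTS genes rose in 5 and fell in 6 in DMSO and in 6 and 4 in MM401. Col12a1 fell by 1.44 and 1.18, Adamts17 by 1.02 and 1.00 and Adamts2 by 1.22 and 0.77, in DMSO and MM401. Adamts6 rose by 0.76 and 0.60. In DMSO, 17 members were higher than water at 4 h at both times, 11 at 1 h alone, 6 at 4 h alone, 2 were higher and then lower (Adamts2 and Adamts17), 7 lower at 4 h alone and 19 called at neither time. Both times were set against the same water libraries, so these calls are not independent. The shares of all genes in these classes were not computed.

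Water at the 2 times was compared in MM401. From 1 h to 4 h of water 1 member rose and 1 fell, with 0.867% of all genes called (0.265% higher, 0.601% lower), and the members' median was -0.14 against -0.0053 over all genes. Col12a1 fell by 0.88 (edgeR adjusted p = 0.000757), from 8.36 to 4.54 CPM, a call that was lost without MM401 water 4 h replicate 1. Adamts6 rose by 0.32 (0.0474), from 74.7 to 93.3 CPM, a call that was lost without any 1 of the 5 libraries. At an unadjusted p under 0.05, 15 members were lower and 3 higher (5.99% and 4.03% of all genes), and 45 of 62 had a negative log2 fold change. Of those 15, 14 were among the 30 of 62 members raised by bicuculline at 1 h in DMSO, where the reference was water at 4 h. The libraries of that DMSO comparison are separate from the MM401 water libraries. The same overlap over all genes was not computed. Col4a3, Col18a1, Col6a2, Col6a3 and Adamts2 were among them, and these 5 were not called in MM401 with water at 1 h as reference. With water at 4 h as reference Col4a3, Col18a1 and Col6a2 were called there too, and Col6a3 and Adamts2 were not. The 15 members were picked on the difference between these same MM401 water groups. A change of their calls in MM401 with the reference is therefore partly built in, and is no separate evidence. With water at 4 h as reference in MM401 as well, bicuculline at 1 h raised 22 members and lowered 4, where 18.3% of all genes were higher and 20.6% lower, and the median was 0.31. Against the calls with water at 1 h, 7 were lost (Adamts3, Adamts15, Col5a1, Col5a2, Col15a1, Col22a1 and Col25a1) and 8 gained. The gains were higher for Adamts19, Col4a3, Col4a4, Col6a2, Col6a4 and Col18a1 and lower for Adamts20 and Col2a1.

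The arms share no library, so their calls were set side by side. At 1 h, 18 members were called in both, which is 60% of the 30 in DMSO and 72% of the 25 in MM401. Of these 17 were higher in both and Col5a1 was opposite. With water at 4 h as reference in both arms, 26 members were called at 1 h in MM401, and 20 of them also in DMSO. At 4 h, 24 were called in both, 75% of the 32 in DMSO and 96% of the 25 in MM401, with 16 higher, 8 lower and none opposite. The Pearson correlation of the log2 fold changes across the 62 genes was 0.676 at 1 h, where the references differ in time, and 0.861 at 4 h, as a description, since genes are not independent replicates. In DMSO and MM401, 44.6% and 39.9% of all genes were called at 1 h, and 49.2% and 44.6% at 4 h. The overlap and correlation over all genes were not computed, so this agreement is not shown to be particular to the members.

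**Figure D4:**
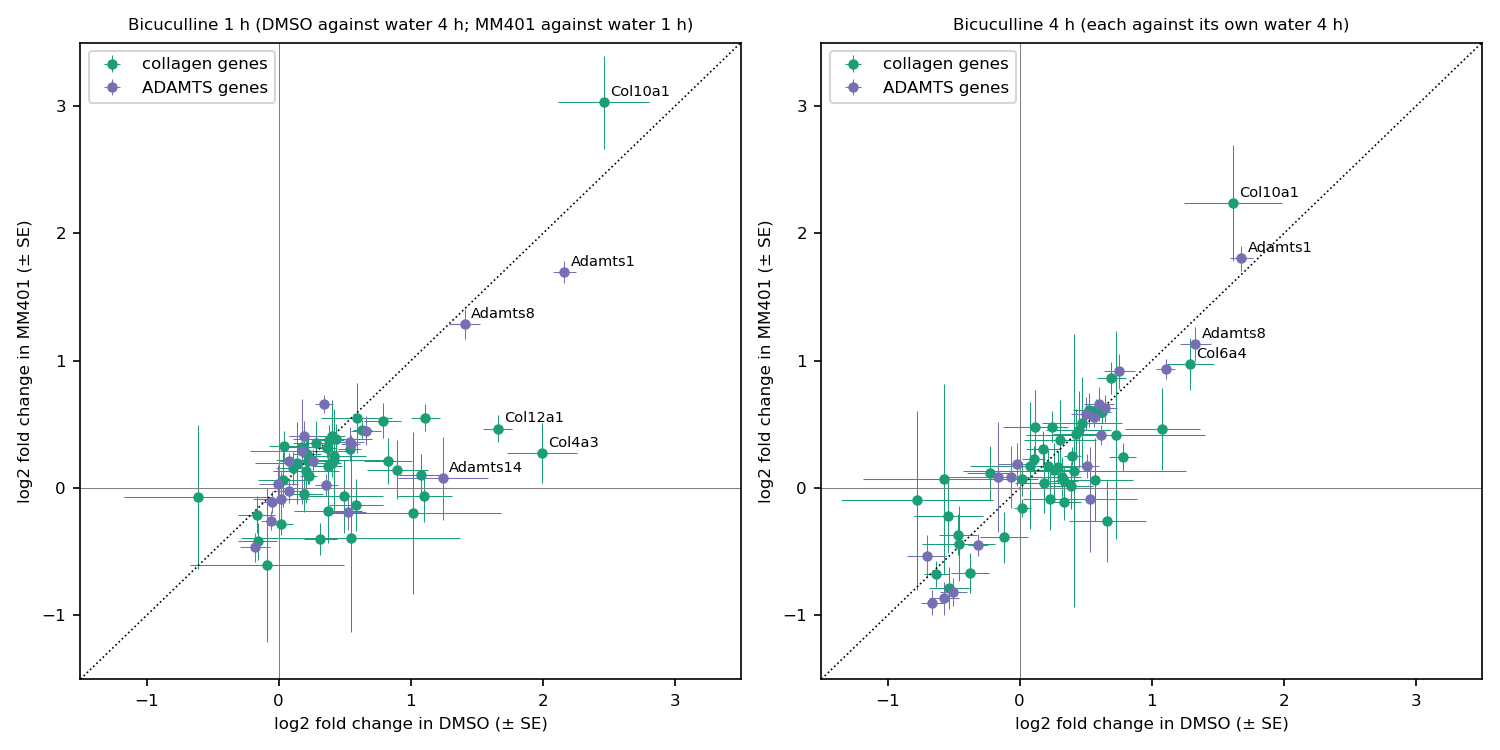
Log2 fold change (± SE) of bicuculline against water for the 62 genes in DMSO (horizontal) and MM401 (vertical), at 1 h (left; references at 4 h and 1 h of water) and 4 h (right), with the line of equal change dotted. Points at 4 h lie along the line (Pearson correlation 0.861), and at 1 h Col4a3 and Col12a1 lie far to the right of it.

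MM401 against DMSO called no member by edgeR, whether with 4 h of water or with 1 h or 4 h of bicuculline, where 0.0826%, 0.0059% and 0% of all genes were called. At an unadjusted p under 0.05 there were 13, 3 and 4 of 62 members, against 12.9%, 3.18% and 7.72% of all genes, and DESeq2 also called none. The members' median absolute log2 difference was 0.19 in water at 4 h, where the median SE was 0.16, and 0.093 in bicuculline at 1 h, where it was 0.14. The bicuculline responses in MM401 and DMSO were also compared with each other, with water at 4 h as the reference of both arms at both times. The difference was called for no member at 1 h or 4 h by edgeR (0% of all genes called; 5 members at each time at an unadjusted p under 0.05, where 7.82% of all genes passed at 1 h and 15% at 4 h). The differences printed above between responses at 1 h with unlike references were not tested. With the shared reference the difference at 1 h was -0.31 for Col12a1 (edgeR adjusted p = 0.67) and -0.98 for Col4a3 (0.553). DESeq2 called Col25a1 at 4 h, with a log2 difference of -0.56 (adjusted p = 0.0321). Without DMSO water 4 h replicate 1, 5 members differed in water at 4 h, with Col5a2 at -0.44, Adamts20 at 0.36, Col25a1 at 0.47, Col26a1 at 0.46 and Adamts17 at 0.32, and 7.5% of all genes were called. Without the same library the response at 4 h differed for Col25a1 by -0.67, Adamts20 by -0.46 and Adamts3 by -0.29, with 9.15% of all genes called.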

How the data were processed

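BrU-seq libraries of mouse cortical cultures were analysed, 21 in 7 groups of 3. The authors deposited raw read counts per gene, which per the file headers came from featureCounts on build mm10 with the whole gene span as the feature. The submitters' processing notes also name Bowtie2, UMI-tools, DESeq2 and deepTools. The versions and the use of strand are not given in the sources used here. The members and gene lists were chosen with earlier results of these data known.

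The fits used edgeR 4.0.16 under R 4.3.3 (filterByExpr, minimum count 10 and minimum total 15; TMM; robust quasi-likelihood; a mean per group; no block; 20 libraries). SE is the absolute log2 fold change over the square root of F, and tests were two-sided. CPM and RPKM use TMM-scaled totals, and RPKM the gene span. Replicates of a group differed beyond sampling noise, with a chi-square per degree of freedom of 6.41 to 82.7. The highest values, 48.1 and 82.7, were those of DMSO water 4 h replicate 1 against replicates 2 and 3. That library is part of the reference of the DMSO comparisons with water. The pipeline was tested on simulated data for bicuculline at 4 h in DMSO, in which 200 genes were changed, equally up and down. Over 16765 genes it recovered 60.6% of genes changed by 0.5 and 83.7% of those changed by 1 on the log2 scale, with 5.96% false calls. In the real comparison 49.2% of genes were called, so these rates may not carry over.

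Members were named if called with at least 0.3 CPM in the higher group, up to 10 per direction and comparison, and list genes up to 3; other members are named to account for every role. Alternatives were DESeq2 1.42.0, RLE scaling, plain library sizes, no filter, all 21 libraries, only the compared groups, a replicate block, leaving out each replicate and, chosen after seeing the data, water at 4 h as reference for bicuculline at 1 h in MM401.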

Additional observations from a re-analysis of the deposited data

Results flagged for a closer look

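Col5a1 was called in opposite directions by bicuculline at 1 h in the 2 arms, with a log2 fold change of 0.32 in DMSO against water at 4 h and -0.40 in MM401 against water at 1 h. The references differ in time and the difference between the arms was not tested in this form.

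Adamts2 and Adamts17 in DMSO were higher with bicuculline at 1 h and lower at 4 h, both against water at 4 h. They differed between the 2 times by -1.22 and -1.02 on the log2 scale. In MM401 neither was called at 1 h against water at 1 h. The means there were 6.37 CPM in bicuculline and 7.24 CPM in water for Adamts2, and 52.9 and 51.9 CPM for Adamts17.

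The shallow library, left out of all fits, held 413 counts in the members, which is 0.130% of its counts against 0.0949% to 0.119% in the others.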

How the results depend on the processing

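Counts of called members kept within 1.5 times under all alternatives, with these exceptions. With all 21 libraries, bicuculline at 1 h in MM401 called 16 members (13 higher, 3 lower). For water at 4 h against 1 h, which called 2, RLE scaling, plain library sizes and all 21 libraries each called 1, and a fit on the compared groups alone called 5 (1 higher, 4 lower). DESeq2 called 1 member, Col25a1, for the difference of responses at 4 h. Leaving out each replicate gave 26 to 33 called members for bicuculline at 1 h and 29 to 33 at 4 h in DMSO, 17 to 24 and 24 to 26 in MM401, 25 to 32 and 20 to 26 for 4 h against 1 h of bicuculline, 0 to 2 for water, 0 to 5 for MM401 against DMSO in water, 0 to 3 for the difference of responses at 4 h and 0 in the other 3 comparisons. The Col5a1 call in MM401 at 1 h turned to 0.055 with water at 4 h as reference, and the cause was not tested. Of 101 named pairs of gene and comparison, 73 kept direction and call under every alternative and 83 under all but leaving out replicates. Plain library sizes gave 10 higher and 13 lower members for 4 h against 1 h of bicuculline in MM401.

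The replicate block gave 29, 33, 26 and 26 called members for bicuculline in DMSO and MM401, 32 and 27 for 4 h against 1 h, 2 for water and 0 elsewhere. It moved no count of calls by over 1.5 times. Of 57 correlations of same-numbered libraries 25 were over 0.1 (median 0.0898). MM401 against DMSO in bicuculline at 4 h was the 1 of 10 compared pairs with all 3 over 0.1. Sample titles run in consecutive sets of 7, 1 per replicate number, and what a set shares is not given.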

Other observations

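Across the 62 members the Spearman correlation of gene length with the log2 difference of MM401 against DMSO was -0.50 in bicuculline at 4 h and -0.0012 in water at 4 h, against -0.43 and 0.40 over all tested genes. These are descriptions over genes of the same libraries, and genes are not independent replicates.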
